A study of Mus musculus with 16 samples.

Results

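The 10 genes described here encode the core ligands and receptors of vascular endothelial growth factor (VEGF) and angiopoietin signalling. They were chosen by symbol, with earlier results of these data known, and all 10 were found among the 54838 genes of the deposited count table. The ligands are Vegfa, Vegfb, Vegfc, Angpt1 and Angpt2, and the receptors are Kdr, Flt1, Flt4, Tek and Tie1.

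RNA was sequenced from spleens of C57BL/6 mice in 16 samples, in a study that looked for genes enriched in spleen glia, the support cells of the nerves that enter the organ. In 8 size-selected samples the cells retained by a strainer, after enzymatic digestion of the minced tissue and lysis of red blood cells, were lysed for RNA. The other 8 samples are whole spleen, for which the labels repeat that protocol and describe no preparation of their own. Each number (407, 408, 427 and 435 from males, and 436, 445, 447 and 460 from females) stands on 1 sample of each group. The labels give no treatment, transgene or age, and they do not say whether each number is 1 animal, so p-values measure the spread between these samples.

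VEGF ligands act on receptor tyrosine kinases of endothelial cells, the cells that line blood and lymph vessels. Kdr (VEGFR2) carries most of the growth and permeability signal of Vegfa, Flt1 (VEGFR1) binds Vegfa and Vegfb and also exists as a soluble decoy, and Flt4 (VEGFR3) is the main receptor of Vegfc and is known for its role in lymphatic vessels. Tek (Tie2) is the receptor of the angiopoietins: Angpt1, made largely by cells around vessels, activates it, and Angpt2, stored and released by endothelial cells, acts on it as an antagonist or a weak agonist depending on context. Tie1 is a related receptor that pairs with Tek. In spleen, endothelial cells line the arterioles and the venous sinuses of the red pulp.

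In the size-selected samples 9 of the 10 genes were called higher than in whole spleen, among them all 5 receptors, which are known from endothelial cells. Over all genes tested 37.5% were called higher. The sequences just upstream of 3 of these receptor genes are shown as a description, and any link of theirs to the rise was not tested. They are credited to RefSeq (GRCm38.p6), are written 5′ to 3′ on the gene's own strand, and end where the annotated transcript begins. Capitals mark GGAA or its reverse complement TTCC, the core letters read by ETS transcription factors, a family known for its part in endothelial gene expression. Kdr lies at chr5:75978459-75978705 on the minus strand, Flt1 at chr5:147726012-147726261 on the minus strand, and Tek at chr4:94739039-94739288 on the plus strand.
Kdr: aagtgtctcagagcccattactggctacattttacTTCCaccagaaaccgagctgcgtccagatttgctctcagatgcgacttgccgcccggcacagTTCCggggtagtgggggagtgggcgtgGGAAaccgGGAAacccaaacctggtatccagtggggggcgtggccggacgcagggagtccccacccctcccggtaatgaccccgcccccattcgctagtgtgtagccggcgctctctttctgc
Flt1: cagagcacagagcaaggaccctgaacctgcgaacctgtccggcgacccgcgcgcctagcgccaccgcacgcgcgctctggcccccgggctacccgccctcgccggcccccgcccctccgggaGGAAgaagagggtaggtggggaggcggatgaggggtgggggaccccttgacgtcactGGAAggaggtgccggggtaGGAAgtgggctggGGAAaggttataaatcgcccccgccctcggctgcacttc
Tek: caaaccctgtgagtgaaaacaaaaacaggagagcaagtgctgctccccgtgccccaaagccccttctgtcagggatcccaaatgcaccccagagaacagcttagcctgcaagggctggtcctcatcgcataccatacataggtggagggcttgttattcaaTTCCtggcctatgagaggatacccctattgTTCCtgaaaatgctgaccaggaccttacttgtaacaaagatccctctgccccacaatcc
The Kdr window holds 4 cores, the Flt1 window 4 and the Tek window 2, counted on both strands. Of 27025 RefSeq promoter windows of 250 bases, 93.4% held at least 1 core, with a median of 3, and 33.4% held at least 4. The 250 bases before the RefSeq start of Tie1 held 7 cores, a number reached by 3.8% of windows, those of Vegfa held 6 (8.7% of windows), those of Flt4 held 2, as did those of Tek (76.9% of windows held at least 2), and those of Vegfb and Vegfc held 1 each. The Flt4 window lies wholly inside the gene as GENCODE annotates it, and 212 bases of the Tie1 window do. An entry was found for 8 of the 10 genes. Vegfa had 2 windows, of which the first was counted. A match of these letters is a description of the sequence and not a binding site.

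Coordinates of the genes are from GENCODE release M21 on GRCm38, and all 10 are annotated there as protein coding. Vegfa lies on chromosome 17 (46016993 to 46032369), Vegfb on chromosome 19 (6982473 to 6987651), and Vegfc (54077606 to 54187096) and Angpt2 (18690263 to 18741562) on chromosome 8. Angpt1 lies on chromosome 15 (42424723 to 42676977). Kdr (75932827 to 75978458) and Flt1 (147561604 to 147726011) are both on chromosome 5, Flt4 is on chromosome 11 (49609263 to 49652739), and Tek (94739289 to 94874976) and Tie1 (118471191 to 118490061) are both on chromosome 4. Angpt1 shares 737 exon bases, 14.159% of its exon length, with the antisense gene Gm17473. Angpt2 lies inside Mcph1 on the opposite strand and shares 0 exon bases with it. Whether counting used strand is not given in the sources used here, so reads from Angpt1 and its antisense partner cannot be told apart.

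Library totals ranged from 13119992 to 19944440 estimated counts in the size-selected group and from 12153770 to 16282454 in whole spleen. The deposited size-selected values of 3898 genes, unlike any whole spleen value, carry a factor of 1 or more of 3 constants per library, as found from the values alone. Of the 10 genes, 6 carry one. Kdr, Flt1, Flt4 and Tie1 carry the low constant, from 0.659 to 0.789 by sample, so their deposited size-selected values are below the restored ones. Tek carries the middle constant (0.770 to 0.858) and the high constant (0.889 to 0.964), and Angpt2 the high one. Vegfa, Vegfb, Vegfc and Angpt1 carry none. Values below are as deposited, and differences on restored counts, with the constants divided out, are given beside them.

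Levels are in CPM (counts scaled to the library's TMM-adjusted total), and differences are log2 fold changes of size-selected over whole spleen from edgeR's quasi-likelihood test, adjusted over the 14510 genes tested (a call is an adjusted p under 0.05). Of the 10 genes, 9 were called, all of them higher in the size-selected samples. Among all genes tested 67.9% were called, 37.5% higher and 30.4% lower. The same 9 were called on restored counts (37.6% of all genes tested called higher) and with the number as a block (38.1%). They were higher in 8 of 8 pairs, as were 31.3% of all genes tested, and their size-selected and whole spleen values did not overlap, as for 23.3% of all genes tested. The count filter asked for 0.686 CPM in at least 8 samples, and all 10 genes passed it, with all 8 size-selected samples past that level. In whole spleen 7 samples were past it for Flt4, 4 for Vegfc, 4 for Tek and 3 for Angpt2, so Angpt2 would not have been tested at its whole spleen level in both groups. Without the filter the same 9 genes were called. In bulk samples, fewer cells of a type and less RNA per cell cannot be told apart.

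**Figure D1:**
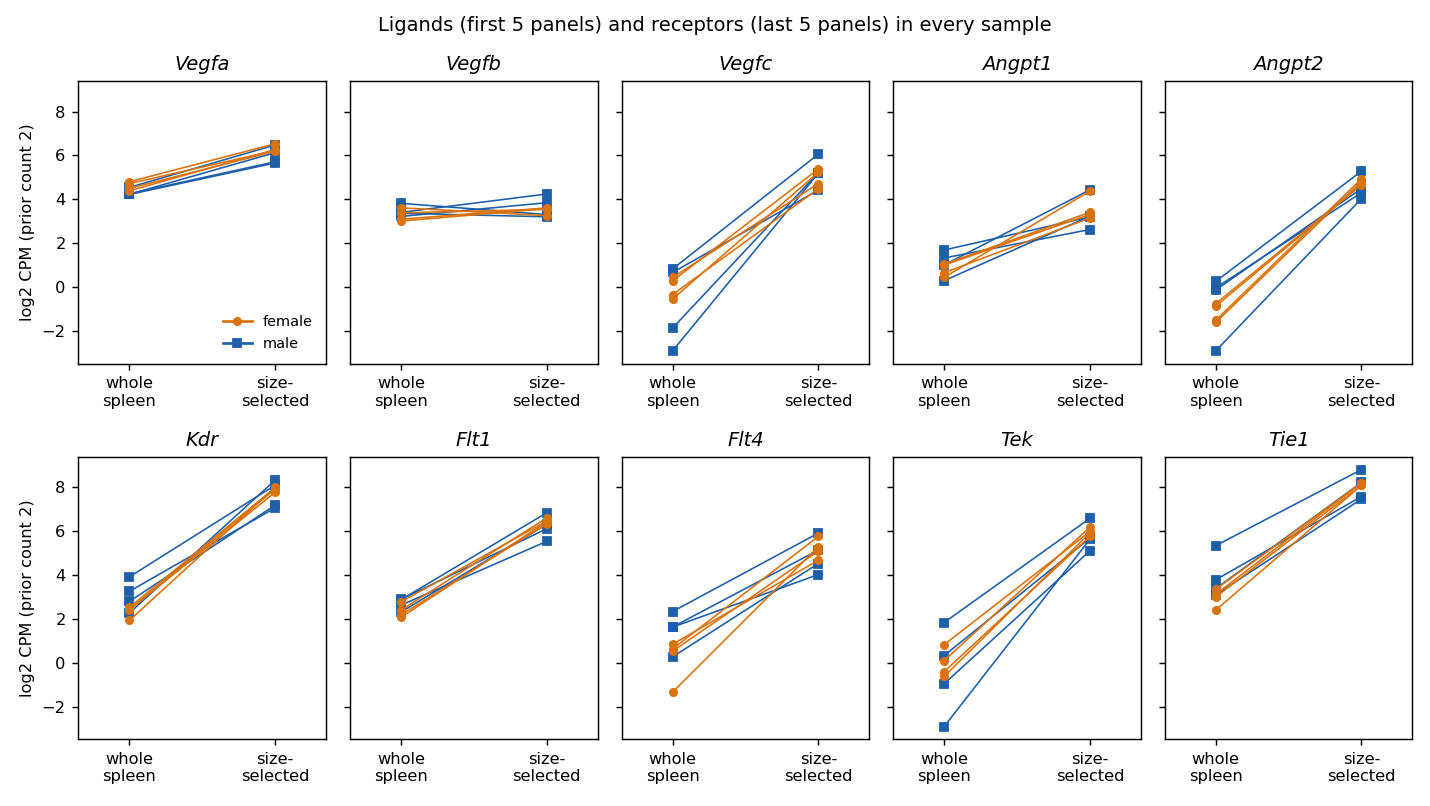
Level of each gene in every sample (y axis, log2 CPM with a prior count of 2; x axis, group), with a line joining the samples of each number, circles for females and squares for males. Lines rise in 8 of 8 numbers for every gene but Vegfb, whose lines rise in 5 and fall in 3.

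Among the ligands, Vegfa, the principal growth factor of blood vessels, rose about as much in every pair. Its lowest, median and highest levels were 50.2, 73.7 and 92.3 CPM in size-selected samples against 18.5, 21.6 and 27.7 CPM in whole spleen. The groups did not overlap, and the difference within pairs ran from 1.44 to 1.94 on the log2 scale. The fitted log2 fold change was 1.71 ± 0.136 (SE; adjusted p = 3.80e-09, higher in 8 of 8 pairs), or 1.66 on restored counts. Of all genes tested, 24.8% were called higher with a log2 fold change of 1 or more.

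Vegfb, a ligand of Flt1 best known from muscle and fat, was the 1 gene of the 10 that was not called. Its levels were 9.06, 11.6 and 18.8 CPM (lowest, median, highest) in size-selected samples against 7.90, 10.2 and 13.9 CPM in whole spleen, which overlap. It was higher in 5 of 8 pairs and lower in 3, and the fitted difference was 0.23 ± 0.165 (log2, SE; adjusted p = 0.228). The value was 0.17 on restored counts.

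Vegfc, the growth factor of lymphatic vessels, was near the detection limit in whole spleen and well above it in every size-selected sample. Size-selected levels were 21.2 CPM at the lowest, 36.6 at the median and 66.4 at the highest, from at least 306 counts in each library. Whole spleen levels were 0, 0.866 and 1.63 CPM, from 0 to 20 counts, and the sample at 0 was number 407, where 3 counts would be 0.2333 CPM. The log2 fold change was 5.41 ± 0.421 (SE; adjusted p = 2.93e-09, higher in 8 of 8 pairs), or 5.36 on restored counts.

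The angiopoietins both rose. Angpt1 measured 6.02, 9.49 and 21.4 CPM (lowest, median, highest) in size-selected samples against 1.09, 1.87 and 3.08 CPM in whole spleen. The size-selected samples of numbers 427 and 436 lay at 21.4 and 20.6 CPM, and the other 6 were at most 10.5 CPM. Its log2 fold change was 2.67 ± 0.290 (SE; adjusted p = 1.85e-07), or 2.62 on restored counts. Angpt2 measured 16.2, 25.4 and 38.7 CPM in size-selected samples against 0, 0.435 and 1.06 CPM in whole spleen, where no sample had more than 13 counts and number 435 had 0. Its log2 fold change was 5.72 ± 0.374 (SE; adjusted p = 4.53e-10), or 5.80 on restored counts. Both were higher in 8 of 8 pairs without overlap. Whether the change of Angpt2 differs from that of Angpt1 was not tested.

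All 5 receptors rose, by 3.86 to 5.80 on the log2 scale, and 9.97% of all genes tested were called higher with a log2 fold change of 3.5 or more. Kdr, the main signalling receptor of Vegfa, measured 133, 247 and 321 CPM (lowest, median, highest) in size-selected samples against 3.66, 5.43 and 14.9 CPM in whole spleen. Numbers 408 and 435 were the lowest of the size-selected samples, at 145 and 133 CPM, and the other 6 were at 218 CPM or more. The log2 fold change of Kdr was 5.06 (SE 0.285, adjusted p = 1.42e-10), or 5.46 on restored counts.

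Flt1, the high-affinity receptor of Vegfa and Vegfb, measured 46.2, 83.0 and 114 CPM in size-selected samples against 4.05, 5.58 and 7.25 CPM in whole spleen. Its log2 fold change was 3.86 ± 0.180 (SE; adjusted p = 2.13e-11), the smallest of the 5 receptors, and 4.27 on restored counts. Flt4, the receptor of Vegfc, measured 16.1, 34.4 and 59.9 CPM in size-selected samples against 0.261, 1.53 and 4.90 CPM in whole spleen, where number 447 had 4 counts and number 427 had 60. Its log2 fold change was 4.13 ± 0.406 (SE; adjusted p = 5.27e-08), or 4.54 on restored counts. Within pairs the difference of Flt4 ran from 2.45 to 7.22 on the log2 scale, a wider range than for Flt1 (2.94 to 4.41).

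The angiopoietin receptor Tek measured 34.2, 57.1 and 95.6 CPM in size-selected samples against 0, 0.776 and 3.43 CPM in whole spleen. The highest whole spleen value was that of number 427, from 42 counts, and number 407 had 0 counts. Its log2 fold change, 5.80 (SE 0.431, adjusted p = 1.74e-09), lay within 1 SE of that of Angpt2, and was 6.18 on restored counts. Tie1, its partner receptor, measured 177, 283 and 448 CPM in size-selected samples against 5.14, 9.29 and 40.3 CPM in whole spleen. Again number 427 was the highest whole spleen sample, and the other 7 were at most 13.6 CPM. The log2 fold change of Tie1 was 4.44 (SE 0.371, adjusted p = 6.54e-09), or 4.85 on restored counts. All 5 receptors were higher in 8 of 8 pairs, and none overlapped between the groups.

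Number 427 recurs among these extremes. Its size-selected sample was the highest of 8 for Vegfb, Vegfc, Angpt1, Angpt2, Flt1, Flt4, Tek and Tie1, and its whole spleen sample was the highest of 8 for Vegfc, Angpt2, Kdr, Flt4, Tek and Tie1. The mean log2 CPM of the 16 endothelial markers was also the highest in this number, at 7.28 in the size-selected sample (the other 7 from 5.88 to 6.73) and 3.44 in whole spleen (the other 7 from 1.63 to 2.64). Without number 427 the log2 fold change was 6.17 for Tek, 4.82 for Tie1 and 5.28 for Kdr, and the same 9 genes were called.

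The authors' deposited table holds 7 of the 10 genes. In the authors' deposited table Tek has a log2 fold change of 5.77, Vegfc 5.17, Kdr 5.06, Angpt2 5.02, Tie1 4.44, Flt4 4.13 and Flt1 3.99. The authors' mean TPM in the authors' deposited table is 118 against 3.18 for Tie1 and 65.2 against 1.13 for Kdr (size-selected against whole spleen). Vegfa, Vegfb and Angpt1 have no row in the authors' deposited table, and theirs were the 3 smallest log2 fold changes of the 10 here.

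Levels of different genes were compared per kilobase of exon, which also shows how the makeup of the system differs between the groups. In the size-selected samples Tie1 was the highest of the 10 at 57.1 ± 16.8 CPM per kilobase (SD, n = 8), above Kdr at 25.5 ± 7.02 in 8 of 8 samples with no overlap. Vegfa followed at 16.9 ± 3.53, Vegfc at 14.7 ± 5.90, Tek at 12.7 ± 3.88, Vegfb at 7.52 ± 1.99, Angpt2 at 6.98 ± 1.88, Flt1 at 6.11 ± 1.47, Flt4 at 4.34 ± 1.83 and Angpt1 at 2.29 ± 1.11. Each of these neighbours in the order overlapped with the next. On restored counts 5 of the 10 genes kept their rank, and Tek moved from rank 5 to rank 3. By the length of the longest transcript in place of all exons, the mean of Flt1 was 11.96, above Vegfb (9.42) and Angpt2 (7.24), that of Kdr was 38.8 and that of Tie1 was 66.3. By that length the ranges of Tie1 (from 41.7) and Kdr (to 54.1) overlapped.

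Whole spleen had another order. There the 2 ligands Vegfb, at 6.41 ± 1.23 CPM per kilobase, and Vegfa, at 5.14 ± 0.819, were the highest (SD, n = 8), and their ranges overlapped. Tie1 followed at 2.65 ± 2.30, where number 427 is 1 of the 8, then Kdr at 0.768 ± 0.405, Flt1 at 0.422 ± 0.0936, Angpt1 at 0.357 ± 0.124 and Vegfc at 0.343 ± 0.245. Flt4 at 0.250 ± 0.178, Tek at 0.229 ± 0.227 and Angpt2 at 0.134 ± 0.0994 were the lowest. All neighbours in this order overlapped.

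**Figure D2:**
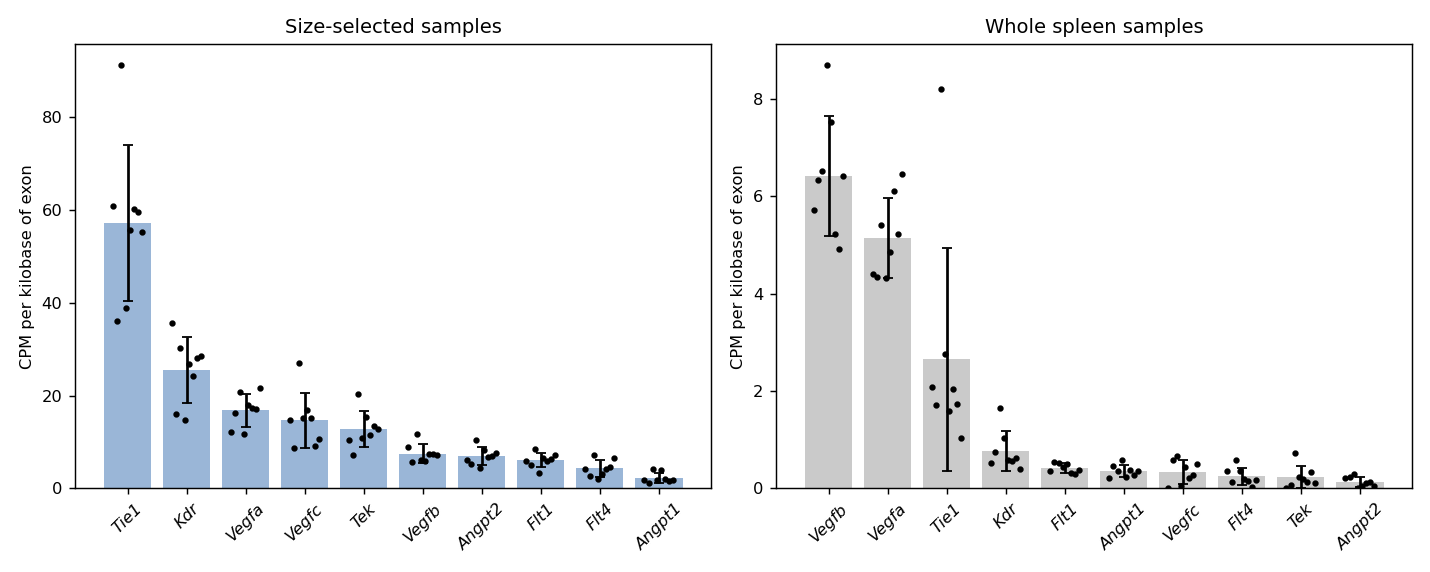
CPM per kilobase of exon (y axes, on different scales) of each gene (x axis, ordered by mean) in the 8 size-selected and the 8 whole spleen samples; bars are means, error bars SD and points samples. Tie1 leads at 57.1 in the size-selected samples, and Vegfb leads at 6.41 in whole spleen.

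Ratios within a sample need no scaling between libraries, and 4 of 5 ratios per length separated the groups (described without a test). The share of other gene pairs that separate was not computed. The ratios restate unlike fold changes given above, so nothing is read from that count. Angpt1 to Angpt2, the agonist over the context-dependent ligand of Tek, was 0.218, 0.293 and 0.480 (lowest, median, highest) in the size-selected samples. In the 7 whole spleen samples with Angpt2 counts it was 0.993, 2.23 and 6.85, from 3 to 13 counts of Angpt2. Angpt1 was thus the higher of both per length in 6 of those 7 samples and the lower in all 8 size-selected ones. By the length of the longest transcript the lowest whole spleen ratio was 1.17, so Angpt1 was the higher in all 7. Flt1 to Kdr was 0.165, 0.244 and 0.318 in the size-selected samples and 0.322, 0.631 and 0.939 in whole spleen, with the lowest whole spleen value in number 427.

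Vegfa to Vegfb was 1.38, 2.32 and 3.06 in the size-selected samples and 0.497, 0.801 and 1.17 in whole spleen. Vegfa to Vegfc was 0.766, 1.10 and 2.02 in the size-selected samples and 7.34, 13.0 and 75.4 in the 7 whole spleen samples with Vegfc counts. The highest of these, in number 435, rests on 2 counts of Vegfc. Tie1 to Tek overlapped, at 3.59, 4.46 and 5.82 in the size-selected samples and 5.02, 11.3 and 21.1 in 7 whole spleen samples. On restored counts the median of Angpt1 to Angpt2 in the size-selected samples was 0.267, and the groups were separated in the same 4 ratios.

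**Figure D3:**
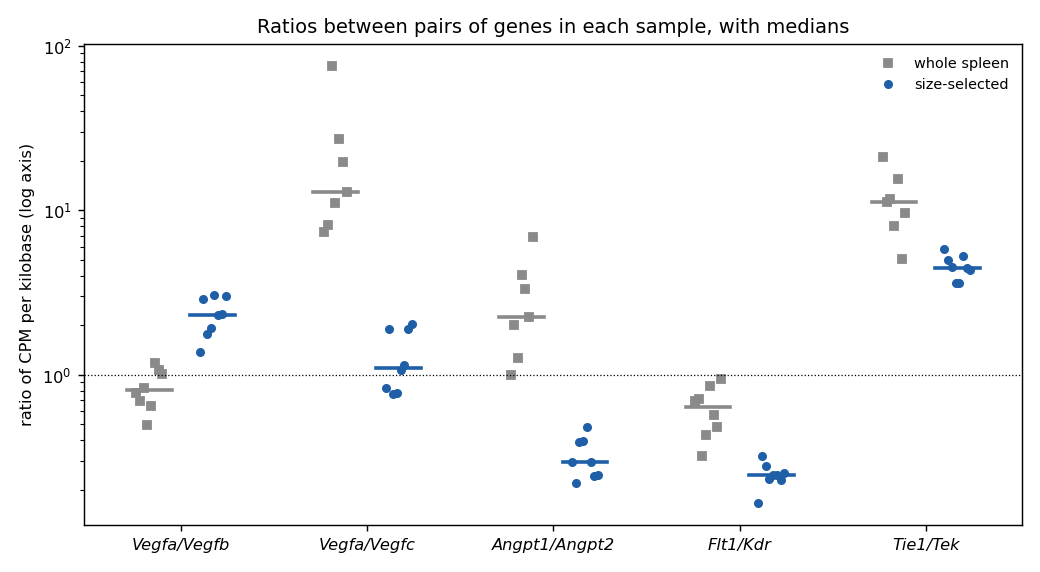
Ratio of CPM per kilobase between 2 genes (y axis, log scale; x axis, the ratio) in each sample, with squares for whole spleen, circles for size-selected samples and bars for medians; samples with 0 counts in the denominator are left out. Angpt1 to Angpt2 falls from a median of 2.23 in whole spleen to 0.293 in the size-selected samples.

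Markers of several cell types moved with these genes, and each list is given whole. All 16 of 16 endothelial markers (for example Pecam1, Cdh5 and Emcn) rose, with a median log2 fold change of 4.55, and their mean log2 CPM ran from 5.88 to 7.28 in the size-selected samples and from 1.63 to 3.44 in whole spleen. All 11 of 11 pericyte and smooth muscle markers rose (median 6.49; mean log2 CPM 6.07 to 7.92 against 0.10 to 2.44), as did all 7 of 7 fibroblast markers (median 7.04; 7.06 to 8.77 against -0.47 to 2.80). Of 8 glia markers 6 were tested and 6 rose (median 7.16; 3.11 to 5.94 against -2.50 to -0.66), and Sox10, a defining factor of glia that did not pass the filter, averaged 3.5 CPM and 0.0768 CPM in these groups. Sinusoidal endothelial markers rose in 4 of 4 tested of 6 (median 3.74; 5.63 to 6.99 against 2.57 to 4.35), with Gata4 at 0 counts in every whole spleen sample, and lymphatic endothelial markers in 4 of 5 tested of 6 (median 4.36; 3.05 to 5.12 against 0.04 to 1.55). The part of any of these cell types in the differences of the 10 genes was not tested.

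Of 7 markers of megakaryocytes, whose platelets carry VEGF and angiopoietin, 7 rose (median 1.57; mean log2 CPM 3.22 to 6.03 in the size-selected samples and 2.46 to 4.33 in whole spleen). Of 6 tested stem and progenitor markers 6 rose (median 3.47; 4.08 to 4.89 against 0.49 to 1.98), and Hoxa9 had at most 4 counts in any library. Macrophage markers rose in 5 of 7 (median 0.92; 7.22 to 8.29 against 6.38 to 7.38), and 5 of 5 mesothelial markers rose (median 5.94; 1.77 to 4.61 against -2.34 to -0.78). B cell markers fell in 5 of 6 (median -1.12; 6.62 to 8.26 against 8.61 to 9.06), T cell markers in 5 of 6 (median -1.53; 3.85 to 5.97 against 6.05 to 6.70), neutrophil markers in 5 of 6 (median -1.58; 3.40 to 6.00 against 4.71 to 6.98) and erythroid markers in 3 of 6 (median -1.67; 1.96 to 6.06 against 2.79 to 7.47). Genes known to respond to tissue dissociation rose in 8 of 10 and fell in 1 (median 2.66; 8.19 to 9.19 against 5.67 to 6.76). Of the markers that rose, 5 of glia, 5 mesothelial, 4 of pericytes and smooth muscle, 2 endothelial, 1 lymphatic endothelial, 1 of fibroblasts and 1 of stem and progenitor cells would not have met the count filter at their whole spleen level in both groups. Only a rise could bring these into the test, so nothing is read from the glia and mesothelial counts. Over all genes tested the median was 0.05, with 37.5% called higher and 30.4% lower. Their part in the differences was not tested either.

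Set on the scale of the endothelial markers, the 10 genes divided into 3 groups. For this the library sizes were rescaled so that the mean log2 level of the 16 endothelial markers, which hold none of the 10 genes, was equal in all samples, and the median log2 fold change of all genes tested became -4.27. On that scale 89.9% of genes were called lower and 4.71% higher. Of the 16 markers, 10 carry a constant. The SE and adjusted p on this scale take the marker mean as fixed and leave out the spread among the markers. Some markers were themselves called on it by edgeR. Clec14a (1.11, adjusted p = 0.000966), Emcn (0.82), Ecscr (0.72) and Cd34 (0.49) were higher, and Pecam1 (-2.24), Cldn5 (-0.82) and Egfl7 (-0.81) were lower. A call on this scale thus does not set a gene apart from the markers. On restored counts 4.37% of genes were called higher.

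Vegfc, Angpt2, Kdr and Tek rose by more than the mean of the endothelial markers, whose own log2 fold changes ran from 2.12 for Pecam1 to 5.28 for Clec14a. That of Kdr (5.06) was inside this range, below Clec14a and Emcn (5.10), and those of Vegfc, Angpt2 and Tek were above it. On restored counts the markers ran from 2.20 (Pecam1) to 5.23 (Clec14a), and Kdr, at 5.46, was above them as well. Tek differed by 1.68 (SE 0.369, adjusted p = 7.74e-05, above the markers in 8 of 8 pairs), Angpt2 by 1.47 (SE 0.405, adjusted p = 0.00107, 8 of 8 pairs) and Kdr by 0.86 (SE 0.228, adjusted p = 0.000665, 8 of 8 pairs). Vegfc differed by 1.07 (SE 0.423, adjusted p = 0.0172, 7 of 8 pairs), and its call was lost on restored counts (0.83, adjusted p = 0.0637) and without number 435 (0.79, adjusted p = 0.0689). With the number as a block, Vegfc was called on restored counts as well (1.02, adjusted p = 0.00701). Without the count filter, which Angpt2 passed only through its size-selected level, Angpt2 was at 1.47 (adjusted p = 0.00147), Tek at 1.68 (adjusted p = 3.67e-05) and Vegfc at 1.07 (adjusted p = 0.0153).

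Flt1, Flt4 and Tie1 were not called either way. Tie1 differed by 0.34 (SE 0.229, adjusted p = 0.159, above the markers in 6 of 8 pairs), but was called higher on restored counts (0.55, adjusted p = 0.0252) and without number 427 (0.47, adjusted p = 0.0156). Flt1 differed by -0.47 (SE 0.248, adjusted p = 0.0678, below the markers in 7 of 8 pairs) and was called lower without number 427 (-0.54, adjusted p = 0.0182), while it was at -0.26 on restored counts (adjusted p = 0.310) and at -0.067 with the 3 markers Pecam1, Cdh5 and Emcn (adjusted p = 0.781). Flt4 differed by -0.08 (SE 0.329, adjusted p = 0.815, below in 5 of 8 pairs), and its sign turned on restored counts (0.14).

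Vegfa, Vegfb and Angpt1 were below the endothelial markers in 8 of 8 pairs each, like most genes on this scale. Vegfa differed by -2.67 (SE 0.291, adjusted p = 1.75e-10), Vegfb by -4.13 (SE 0.280, adjusted p = 3.05e-15) and Angpt1 by -1.71 (SE 0.327, adjusted p = 1.03e-05). The value of Vegfb lay next to the median of all genes, and those of Vegfa and Angpt1 lay between that median and the markers. With the 3 markers Pecam1, Cdh5 and Emcn alone, the calls of these 3 genes and of Vegfc, Angpt2, Kdr and Tek were the same, and Tie1 was called higher (0.71, adjusted p = 0.00428).

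**Figure D4:**
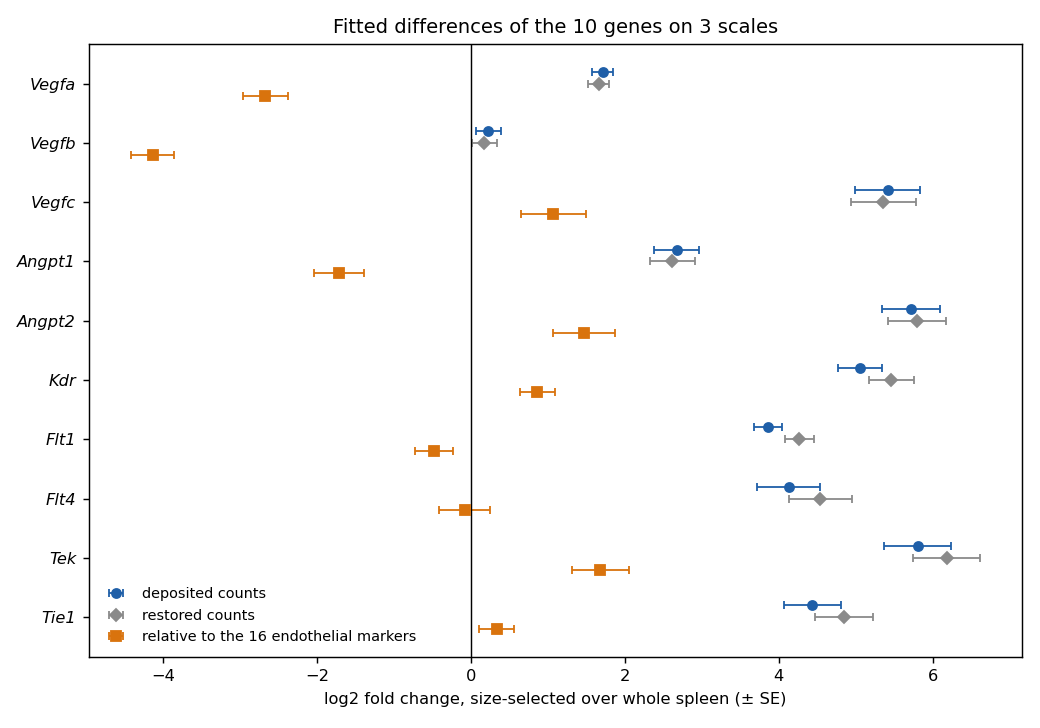
Log2 fold change of size-selected over whole spleen (x axis, with SE) for each gene (y axis) on deposited counts (circles), restored counts (diamonds) and relative to the 16 endothelial markers (squares). Vegfb lies near 0 on counts, and Tek reaches 5.80 on deposited counts and 1.68 relative to the markers.

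The further ligands, co-receptors and modifiers of the system were counted as a list of 12 genes, of which 10 were tested and called higher, where 37.5% of all genes tested were. For 4 of them (Vegfd, Pgf, Svep1 and Ccbe1) the count filter would not have been met at the whole spleen level in both groups, so only a rise could bring them into the test, and nothing is read from the count. Vegfd, the second ligand of Flt4, averaged 8.76 CPM in size-selected samples against 0.0279 CPM in whole spleen, where no library had more than 1 count, and Pgf, a ligand of Flt1, averaged 4.07 CPM against 0.267 CPM (at most 8 counts in whole spleen). No fold is given for these 4 genes. The co-receptors Nrp1 and Nrp2 rose by 4.37 (SE 0.258, adjusted p = 1.76e-10) and 3.63 (SE 0.257, adjusted p = 1.01e-09). Ptprb, the phosphatase that acts on Tek in endothelial cells, rose by 4.86 (SE 0.373, adjusted p = 2.49e-09), and was at 193 CPM in size-selected samples against 6.67 CPM in whole spleen.

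Svep1, a matrix protein that binds Tie1, averaged 16.3 CPM in size-selected samples against 0.178 CPM in whole spleen (at most 10 counts). Mmrn2, an endothelial matrix protein, rose by 4.89 (SE 0.373, adjusted p = 2.31e-09). Ccbe1, a cofactor in the processing of Vegfc, averaged 7.49 CPM against 0.238 CPM (at most 11 counts), while Adamts3, the protease of that step, did not pass the filter at 0.899 and 0.537 CPM (size-selected, whole spleen). Angpt4 did not pass it either, at 4.00 and 0.0951 CPM. Of the angiopoietin-like genes, Angptl2 rose by 5.53 (SE 0.374, adjusted p = 6.31e-10) and Angptl4 by 1.49 (SE 0.301, adjusted p = 0.000247), or by 5.91 and 2.20 on restored counts. Angptl4 carries the low and the middle constant.

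Downstream of the receptors, genes were called in both directions. Of 26 genes of receptor signalling (adaptors, kinases and their targets), 26 were tested, 13 rose, 8 fell and 5 were not called, with a median log2 fold change of 0.33. Falls were near the share of all genes tested called lower (30.4%), and 37.5% of all genes were called higher. The 3 largest rises were those of Grb14, an adaptor that binds receptor tyrosine kinases (6.45 CPM in size-selected samples against 0.115 CPM and at most 6 counts in whole spleen, so that only a rise could bring it into the test), Nos3, the endothelial nitric oxide synthase (5.22, SE 0.340), and Yes1, a kinase of the Src family (3.20, SE 0.250). The largest falls were those of Grb7, an adaptor of the same family as Grb14 (-1.69, SE 0.355), and Sh2d2a, an adaptor known from T cells and Kdr signalling (-1.22, SE 0.228). On restored counts 14 rose and 7 fell.

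Genes known to be induced by VEGF in endothelial cells rose in 7 of the 11 tested (of 12), fell in 2 and were not called in 2, with a median of 0.81 (all genes tested: 37.5% higher, 30.4% lower, median 0.05). Adamts1, a secreted protease, rose by 6.67 (SE 0.491), Esm1, a marker of endothelial tip cells, by 5.08 (SE 0.331), and Dll4, the Notch ligand of tip cells and arteries, by 4.58 (SE 0.260). The falls were those of the transcription factor Egr3 (-1.09, SE 0.182) and the phosphatase Dusp5 (-0.64, SE 0.115), both of which are also induced in activated lymphocytes.

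In the list of hypoxia sensing and Vegfa control, 10 of 11 genes were tested, 4 rose, 2 fell and 4 were not called, with a median of 0.0546 against 0.0482 for all genes tested (0.117 and 0.0416 on restored counts), of which 37.5% were called higher and 30.4% lower. Epas1, the hypoxia-inducible factor subunit of endothelial cells, rose by 4.05 (SE 0.210), whereas Hif1a rose by 0.62 (SE 0.137) and Zfp36, which destabilises mRNAs, by 0.39 (SE 0.123). Zfp36l1, which is known to limit Vegfa mRNA, fell by 0.59 on the log2 scale (SE 0.122), and the prolyl hydroxylase Egln2 fell by 0.29 (SE 0.0959). All values named from these 3 lists had an adjusted p under 0.05 in edgeR's test over 14510 genes. On restored counts 3 genes of the list rose.

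**Figure D5:**
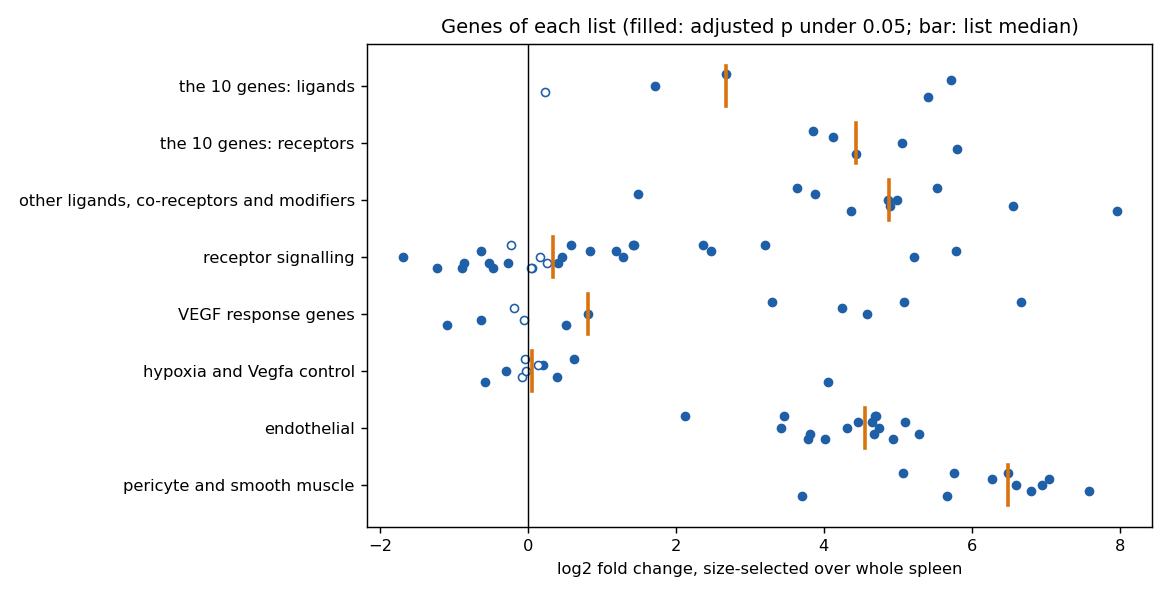
Log2 fold change of size-selected over whole spleen (x axis) of each tested gene of 8 lists (y axis), filled where called, with bars for list medians. The 5 receptors lie between 3.86 and 5.80, as the 16 endothelial markers lie around 4.55, while receptor signalling spreads on both sides of 0 with a median of 0.33.

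The sexes were compared within each group, 4 females against 4 males. In the size-selected samples none of the 10 genes was called, where 6 of 15127 genes tested (0.0397%) were, and none had an unadjusted p under 0.05 by edgeR or DESeq2. Without number 427, 3 of the 10 had one by edgeR, as had 1851 of 15387 genes. The log2 fold changes of females over males ran from -0.35 for Vegfc (SE 0.304) to 0.26 for Vegfa (SE 0.183), and all 10 genes overlapped between the sexes.

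In whole spleen 9 of the 10 were tested (Angpt2 did not pass the filter), none was called, and 26 of 13383 genes (0.194%) were. At an unadjusted p under 0.05 there were 3 receptors by edgeR, where 16.1% of the genes tested were, and 3 genes by DESeq2, where 10.6% were, each with the lower mean in females, and female and male values overlapped for all of them. By edgeR this count was 1 without number 427, 4 without 436, and 2 without 447 or without 460. The female mean of Tie1 was 7.89 ± 2.05 CPM against a male mean of 18.1 ± 14.9 CPM (SD, n = 4 each). Its log2 fold change was -1.21 (SE 0.431, edgeR adjusted p = 0.204). Kdr measured 4.92 ± 0.862 and 8.94 ± 4.44 CPM (-0.87, SE 0.331), and Flt4 1.16 ± 0.616 and 2.97 ± 1.56 CPM (-1.36, SE 0.557). The highest male value was number 427 in each, and without it the values were -0.45 for Tie1, -0.50 for Kdr and -1.003 for Flt4.

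An interaction term asked whether the rise differed between females and males. None of the 10 genes was called, and 0 of 15760 genes were (0%), while DESeq2 called 3 genes. At an unadjusted edgeR p under 0.05 there were 744 genes, with 3 of the 10 among them. The estimated rise was larger in females by 1.54 for Flt4 (SE 0.683), 1.22 for Tie1 (SE 0.568) and 1.01 for Kdr (SE 0.440) on the log2 scale, each not called, with an edgeR adjusted p of 0.999869. Number 427, a male, had the highest whole spleen value of these genes, and no interaction fit left it out. With the number as a block, Tie1 differed by 1.07 (SE 0.301, adjusted p = 0.574).

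Within the size-selected group the 10 genes did not vary as 1 block. Over the 8 samples, Pearson's r of log2 CPM was highest between Angpt2 and Flt1 (0.94) and between Flt1 and Flt4 (0.90), and lowest between Vegfa and Vegfc (0.09). Vegfc and Angpt1 were at 0.83, Angpt1 and Tek at 0.89, Tek and Tie1 at 0.84, and Kdr and Tek at 0.57. These are descriptions over 8 samples that differ in depth and in marker levels of cell types. The endothelial score, for example, ran from 5.88 in number 408 to 7.28 in number 427. The part of such differences in these r was not tested.

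Among the 10103 genes whose mean log2 CPM reached 3, the 3 most alike genes were found for each of the 10. These are the top of 10103 values of r over only 8 samples, and all lay from 0.957 to 0.992. The r that other genes reach in this way was not computed, so nothing about cell type is read from them. Tek was most like Pecam1 (r = 0.991), Stard8 (0.987) and Plcb1 (0.976). Tie1 was most like Gnas (0.992), Plvap (0.992) and Dpagt1 (0.991). Flt1 was most like Gata2 (0.991), Rprd1a (0.982) and Npnt (0.978), and Kdr was most like Pak4 (0.984), Pcdh12 (0.971) and Rab1a (0.963). Flt4 was most like Naip2 (0.977), Grin2c (0.975) and Tgm1 (0.973).

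Among the ligands, Angpt2 was most like Numb (0.988), Rai14 (0.984) and Rapgef5 (0.978), and Angpt1 was most like Reck (0.980), Dag1 (0.975) and Tmem158 (0.973). Vegfa was most like Snx27 (0.973), Ftl1-ps1 (0.972) and Zfp219 (0.957). Vegfb was most like Tmem35a (0.990) and Lst1 (0.988), and Vegfc was most like Sec22a (0.975), Yipf2 (0.972) and Pi16 (0.971). None of the 10 was among the 3 most alike genes of another.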

How the data were processed

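RNA-seq was compared between 8 size-selected and 8 whole spleen samples of mouse. Per the submitters' processing notes, the tools were Trim Galore, STAR, RSEM and DESeq on mm10, and their versions and roles are not given in the sources used here. The deposited count table holds the authors' estimated counts per gene, which were rounded to whole numbers for testing. The authors' deposited table of their own comparison gives, per the file headers, a mean signal (base mean), a log2 fold change with its error, a test score, p-values and mean TPM per group. The FPKM columns of the authors' deposited table were not used.

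The main tests used edgeR 4.0.16 in R 4.3.3 (quasi-likelihood F test, TMM scaling, filterByExpr at a minimum count of 10) with Benjamini-Hochberg adjustment over all genes tested and a threshold of 0.05. A standard error is the log2 fold change divided by the root of its F statistic. Log2 CPM values use a prior count of 2. Restored counts are the deposited values of the size-selected columns divided by constants found from the values. On 3 simulated columns the search gave the right constants to 100% of 11573 genes. Those columns held whole numbers only, whereas deposited values also hold fractions, so this does not measure the search on fractional values. On simulated counts with a log2 change of 2, the fraction fit recovered 94.7% of 188 changed genes among 14356 tested, with 9 false calls, the sex fits 83.4% in size-selected samples (14846 genes) and 92.5% in whole spleen (13105 genes), and the interaction fit 57% (15411 genes). All 16 sample columns were used, and no 2 held identical values.

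The genes named are the 10, the list "other ligands, co-receptors and modifiers" whole, the 3 largest rises and 2 largest falls among called genes of the other pathway lists, and the 3 genes most like each of the 10, of which 1 is not reported here. The 10 genes and all lists were chosen with earlier results of these data known. Same-numbered samples deviated together from their group means (r from 0.12 to 0.38 across genes, mean 0.21; -0.03 for other pairs), so the numbers, which come from the labels, pair the samples. Alternatives were RLE scaling, library totals, no filter, a minimum count of 30, limma-voom (limma 3.58.1), DESeq2 1.42.0, restored counts, sex as a covariate, the number as a block, 3 endothelial markers and leaving out each number; the combination of restored counts and block was chosen after seeing the data, as was leaving out the filter on the endothelial scale. Lengths are union exon lengths (GENCODE M21), in which 54809 of 54838 gene identifiers were found.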

Additional observations from a re-analysis of the deposited data

Results flagged for a closer look

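Of 33 sets of 8 samples screened (each gene, ratio and marker score by group), 1 had a sample far from the others, where chance flags about 1 set in 20. In whole spleen, log2 CPM of Tie1 was 5.34 in number 427 and from 2.40 to 3.78 in the other 7 samples, a gap of 0.53 of the whole range. The endothelial marker score of that sample, 3.44, was also the highest of the 8 in whole spleen.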

How the results depend on the processing

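The same 9 genes were called higher, and Vegfb was not called, under every one of the alternatives for the fraction comparison. Their log2 fold changes stayed within 1.65 to 1.83 for Vegfa, 5.23 to 5.90 for Vegfc, 2.45 to 2.86 for Angpt1, 5.57 to 6.11 for Angpt2, 4.91 to 5.51 for Kdr, 3.79 to 4.27 for Flt1, 3.93 to 4.59 for Flt4, 5.66 to 6.43 for Tek and 4.32 to 5.06 for Tie1. Vegfb ranged from 0.11 without number 427 to 0.35 with library totals (adjusted p = 0.0542). The replicate block called 10076 genes in place of 9855 and changed no call of the 10 genes in the fraction comparison or relative to endothelial markers. Relative to endothelial markers 13731 genes were called, and 21421 without a count filter, where more genes were tested; that alternative was chosen after seeing the data. A log2 fold change of at least 1 left 4844 genes. Scaling by library totals moved the median of all genes from 0.05 to 0.18. Relative to endothelial markers, Flt4 turned to 0.14 on restored counts, 0.31 with 3 markers and 0.19 on restored counts with the replicate block, and ranged from -0.27 to 0.085 when each number was left out; the cause was not tested. Per length, 5 of 10 genes kept their rank on restored counts.

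DESeq2 called 22 genes for sex in the size-selected samples and 491 in whole spleen. In edgeR's test, which called 26 genes in whole spleen, leaving out each number gave 7 to 261 genes: 17 without number 407, 31 without 408, 261 without 427, 12 without 435, 87 without 436, 8 without 445, 8 without 447 and 7 without 460. None of the 10 genes was among these calls. The interaction called 3 genes with DESeq2 and 3 with the replicate block. For sex in size-selected samples, leaving out each number gave -0.021 to 0.39 for Kdr, -0.035 to 0.58 for Flt4 and -0.13 to 0.30 for Tie1; the cause was not tested. Depth limits Vegfc, Angpt2 and Tek in whole spleen, where their counts were at most 20, 13 and 42.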
